A study of Homo sapiens with 6 samples.

Results

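SNHG1, SNHG3, SNHG5, SNHG6, SNHG7, SNHG8, SNHG12, SNHG15 and GAS5 are non-coding genes that carry small nucleolar RNAs (snoRNAs) in their introns. They were followed in A549, a human lung adenocarcinoma cell line, after siRNA against HNRNPD. The 9 genes were taken by name, and all 9 have a row in the deposited table of 56303 genes. Each of them passed the filter on low counts, which left 20465 rows for testing. Of the 6 libraries, 3 came from A549 cells transfected with a negative-control siRNA and 3 from A549 cells transfected with HNRNPD siRNA. AUF1, the product of HNRNPD, attaches to AU-rich elements of RNAs and influences how fast they decay. The labels do not give the siRNA sequence or the time after transfection. They also do not say that libraries of a group came from separate cultures, so the spread that p-values are set against may be technical.

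snoRNAs guide chemical modification of ribosomal and other RNAs: box C/D snoRNAs direct ribose methylation, and box H/ACA snoRNAs direct pseudouridylation. Most human snoRNAs are cut from introns of a longer host transcript, and the spliced exons that remain can have little or no coding potential. Spliced host RNAs such as GAS5 often begin with a pyrimidine tract of the 5' TOP type, which links their translation to growth signals. They are scanned by ribosomes, reach a stop codon early and are degraded by nonsense-mediated decay (NMD), the pathway that clears transcripts with an exon junction well after the stop.

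The first bases of the spliced hosts are shown because such a tract is a feature of the family that the choice of genes did not use. Transcripts are from GENCODE 29 on GRCh38. For each gene the RefSeq-matched spliced transcript with the longest leading run of C and T was taken, so the runs describe these transcripts and are no test. The first 40 bases of 7 genes are given 5' to 3', with the leading run in capitals where it is at least 4 bases long.
SNHG5-202: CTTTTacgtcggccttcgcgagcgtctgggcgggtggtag
SNHG8-205: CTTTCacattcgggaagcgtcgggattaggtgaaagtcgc
SNHG12-210: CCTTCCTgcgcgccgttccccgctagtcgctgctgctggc
SNHG7-202: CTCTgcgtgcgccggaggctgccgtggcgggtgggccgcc
SNHG1-205: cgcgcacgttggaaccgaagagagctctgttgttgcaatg
SNHG15-210: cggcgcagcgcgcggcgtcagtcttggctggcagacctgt
SNHG3-201: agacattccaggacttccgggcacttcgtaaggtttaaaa

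The shown starts lie at chr6:85678694-85678733 for SNHG5, chr1:28581779-28581818 for SNHG12 and chr9:136728145-136728184 for SNHG7, all on the minus strand. That of SNHG15 lies at chr7:44986630-44986669 on the minus strand, and that of SNHG3 at chr1:28505980-28506019 on the plus strand. The 40 bases of SNHG8 and SNHG1 cross a splice junction and have their first base at position 118278758 of chromosome 4 and 62855460 of chromosome 11. Of the genes shown with a run, SNHG8 and SNHG12 were higher with HNRNPD siRNA, and SNHG5 and SNHG7 were lower. Over all spliced transcripts of the 9 genes, 12 of 72 (16.7%) began with C followed by at least 3 pyrimidines. The same held for 1027 of 25213 spliced long non-coding transcripts of the annotation (4.07%). Transcripts of a gene share sequence and are not independent, and annotated starts may differ from those used in A549 cells.

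Reading frames of SNHG5 and SNHG8 are shown because an early stop followed by a junction is the feature that NMD is known to read. The frame from the first ATG to its stop codon is in capitals, with 10 bases on each side.
SNHG5-202: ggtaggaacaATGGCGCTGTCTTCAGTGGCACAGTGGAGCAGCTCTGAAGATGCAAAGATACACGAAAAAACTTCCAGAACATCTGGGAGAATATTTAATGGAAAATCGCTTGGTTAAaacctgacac
SNHG8-205: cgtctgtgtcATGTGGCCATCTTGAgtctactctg

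The first frame has 35 codons before its stop in the SNHG5 transcript of 6 exons and 4 in the SNHG8 transcript of 4 exons. In each of these transcripts 2 exon junctions lie at least 50 bases after that stop. A first frame with such a junction was found in 64 of 72 spliced transcripts of the 9 genes (88.9%), against 71.4% of spliced long non-coding transcripts. These genes were grouped as hosts cleared by NMD, so the higher share is no support for that. Transcripts of a gene are not independent, and the number of exons was not matched. The SNHG3 transcript, with 3 exons and a first frame of 23 codons, had none. A frame is read here from the letters alone, and its translation was not measured.

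Of the 9 genes, 7 passed the test, 4 of them higher and 3 lower with HNRNPD siRNA. SNHG8, SNHG12, GAS5 and SNHG3 rose, by 1.17-fold to 1.48-fold. SNHG5, SNHG7 and SNHG6 fell, by 1.22-fold to 1.31-fold. SNHG1 and SNHG15 did not pass. The test was edgeR's quasi-likelihood test, with p-values adjusted over all 20465 rows and a call at an adjusted p under 0.05, and values are counts scaled to TMM-adjusted library totals (CPM). In this comparison 56.1% of all tested rows were called, 28.4% higher and 27.8% lower. Among the 11334 rows with a mean of at least 5 CPM, the group in which all 9 genes fall, it was 67.3%. The 77.8% of the 9 genes called is therefore read against a comparison in which most well-counted genes were called, and it does not set them apart. Their median log2 fold change was 0.16, against 0.01 over all tested rows, and it was 0.08 without HNRNPD siRNA replicate 1.

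**Figure D1:**
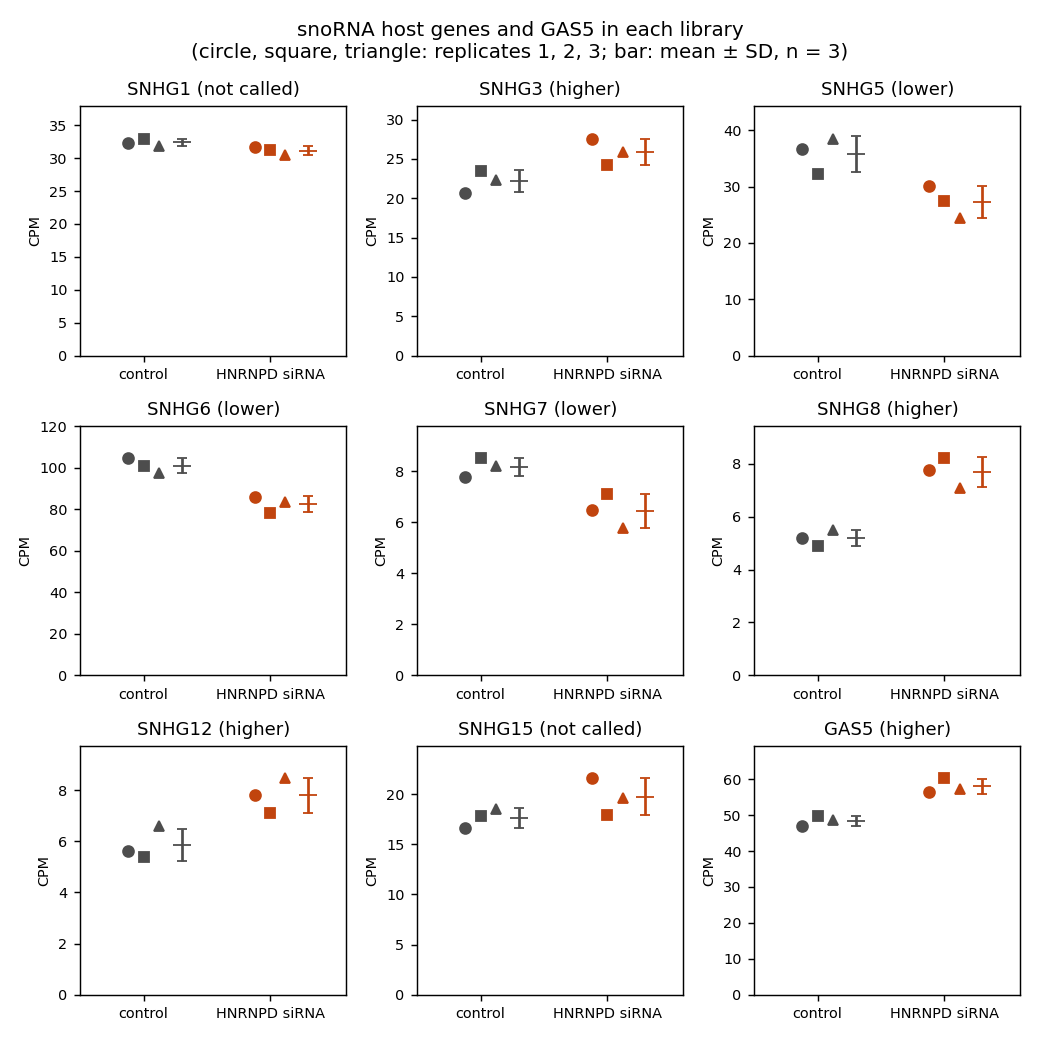
CPM of each of the 9 genes (vertical axes, each starting at 0) in the 3 control and 3 HNRNPD siRNA libraries, with markers for replicates and bars for mean ± SD (n = 3). The libraries of both groups overlap only for SNHG15, and those of SNHG1 lie apart though it was not called. The share of all tested rows without overlap is not given here, so the separation cannot be read as particular to the 9 genes.

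GAS5 is the best-known of these genes, named for its accumulation in growth-arrested cells, and it hosts a cluster of box C/D snoRNAs. Its row spans chr1:173863900-173868882 on the minus strand. GAS5 stood at 46.9, 49.6 and 48.7 CPM in the control libraries and at 56.3, 60.3 and 57.3 CPM with HNRNPD siRNA. Every library with HNRNPD siRNA was above every control library. The mean went from 48.4 ± 1.40 to 58.0 ± 2.07 CPM (SD, n = 3), a log2 fold change of 0.26 (SE 0.06, 95% interval 0.13 to 0.39, edgeR adjusted p = 0.00143). The call held in each of the 15 alternative analyses, with log2 fold changes from 0.23 to 0.29. Only 1.16% of its exonic bases are shared with another row, GAS5-AS1 on the opposite strand, whose means were 0.409 and 0.332 CPM and which is named for that overlap.

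SNHG6, the host of the box C/D snoRNA SNORD87 and the most abundant of the 9 genes, was lower with HNRNPD siRNA. It lies on the minus strand of chromosome 8 (66921684 to 66926398). SNHG6 stood at 104.5, 100.9 and 97.3 CPM in the control libraries and at 85.8, 78.3 and 83.4 CPM with HNRNPD siRNA, with no overlap between the groups. The mean went from 100.9 ± 3.57 to 82.5 ± 3.86 CPM (SD, n = 3), a log2 fold change of -0.29 (SE 0.06, 95% interval -0.42 to -0.16, edgeR adjusted p = 0.000442). SNHG6 was called lower in all 15 alternatives. It shares 36.4% of its exonic bases with other rows, of which 365 bases belong to MCMDC2 on the opposite strand. MCMDC2 was at 4.24 and 3.67 CPM in the control and siRNA groups and was not called (edgeR adjusted p = 0.238). Its whole count is small beside that of SNHG6. How reads over the shared bases were counted is not stated, and their part in the fall of SNHG6 was not tested.

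SNHG5 hosts the box C/D snoRNAs of the SNORD50 group and spans chr6:85660950-85678736 on the minus strand. Its control libraries held 36.7, 32.2 and 38.5 CPM, and the libraries with HNRNPD siRNA held 30.2, 27.4 and 24.4 CPM. The groups did not overlap. SNHG5 fell by 0.39 on the log2 scale (SE 0.08, 95% interval -0.57 to -0.21, edgeR adjusted p = 0.000758), from 35.8 ± 3.23 to 27.3 ± 2.86 CPM (SD, n = 3). It was called in all 15 alternatives. The SNHG5 row shares 2.51% of its exonic bases, those of SNORD50B.

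SNHG1 hosts a cluster of box C/D snoRNAs and spans chr11:62851988-62855914 on the minus strand. It stood at 32.4, 32.9 and 31.9 CPM in the control libraries and at 31.7, 31.3 and 30.4 CPM with HNRNPD siRNA. The highest siRNA library lay just below the lowest control library. The difference was small and was not called: the log2 fold change was -0.06 (SE 0.07, 95% interval -0.19 to 0.08, edgeR adjusted p = 0.479), and the lowest adjusted p over the alternatives was 0.381. The interval leaves room for a change of up to 0.19 on the log2 scale in the lower direction.

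Among the hosts of mainly box H/ACA snoRNAs, SNHG8 showed the largest log2 fold change of the 9 genes. SNHG8 hosts SNORA24 and spans chr4:118278709-118279823 on the plus strand. Its control libraries held 5.21, 4.90 and 5.51 CPM, and the libraries with HNRNPD siRNA held 7.78, 8.21 and 7.09 CPM, with no overlap. The mean rose from 5.21 ± 0.303 to 7.69 ± 0.562 CPM (SD, n = 3), a log2 fold change of 0.56 (SE 0.12, 95% interval 0.32 to 0.81, edgeR adjusted p = 0.000461). These levels rest on 210 to 231 reads per control library and 283 to 344 per siRNA library. SNHG8 lies near PRSS12, a serine protease gene that was not called (4.96 and 5.78 CPM, edgeR adjusted p = 0.173).

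SNHG12, the host of SNORA61, SNORA44, SNORA16A and SNORD99, also rose. It spans chr1:28578538-28582983 on the minus strand. SNHG12 stood at 5.61, 5.39 and 6.58 CPM in the control libraries and at 7.81, 7.11 and 8.47 CPM with HNRNPD siRNA, and the groups did not overlap. The log2 fold change was 0.41 (SE 0.12, 95% interval 0.16 to 0.66, edgeR adjusted p = 0.00726), and the adjusted p stayed at or below 0.0468 in all 15 alternatives. SNHG3, the host of SNORA73A and SNORA73B on the same chromosome (chr1:28505980-28510892, plus strand), had 20.7, 23.4 and 22.4 CPM in the control libraries. With HNRNPD siRNA it had 27.6, 24.2 and 25.9 CPM, and the lowest of these was close above the highest control. SNHG3 rose by 0.22 on the log2 scale (SE 0.08, 95% interval 0.06 to 0.39, edgeR adjusted p = 0.0202). The log2 fold change of SNHG3 was 0.17 without control replicate 1 (edgeR adjusted p = 0.125) and 0.17 without HNRNPD siRNA replicate 1 (0.109), and neither was called. Without control replicate 3 it was 0.22, as large as in full, with an adjusted p of 0.0637.

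SNHG7, the host of SNORA17A and SNORA17B, was the only host of mainly box H/ACA snoRNAs among the 9 genes to be called lower. It spans chr9:136721366-136728184 on the minus strand. SNHG7 had 7.77, 8.50 and 8.20 CPM in the control libraries and 6.49, 7.09 and 5.77 CPM with HNRNPD siRNA, with no overlap. The log2 fold change was -0.34 (SE 0.11, 95% interval -0.58 to -0.10, edgeR adjusted p = 0.0166). Without control replicate 2 the log2 fold change was -0.32, about as large as in full, with an edgeR adjusted p of 0.0583. Without HNRNPD siRNA replicate 3 it was -0.27, with an adjusted p of 0.0521. Of the exonic bases of SNHG7, 31.4% are shared, 1094 of them with FAM69B on the opposite strand. FAM69B fell too, from 6.04 to 3.86 CPM (log2 fold change -0.64, edgeR adjusted p = 0.000313). The counting is not stated to use strand, so reads over those bases cannot be told apart, and their part in the fall of SNHG7 was not tested.

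SNHG15, the host of SNORA9 (chr7:44983023-44986961, minus strand), was not called. It stood at 16.6, 17.9 and 18.5 CPM in the control libraries and at 21.6, 17.9 and 19.6 CPM with HNRNPD siRNA. HNRNPD siRNA replicate 1 was the highest of the 6 libraries, and replicate 2 fell among the controls. The log2 fold change was 0.16 (SE 0.09, 95% interval -0.02 to 0.34, edgeR adjusted p = 0.124), and the lowest adjusted p over the alternatives was 0.0524. The interval includes both no difference and a rise of the size seen for GAS5.

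The summed level of the 9 genes, in which gains and losses partly offset, was 276.5 ± 0.911 CPM in the control libraries and 266.5 ± 7.62 CPM with HNRNPD siRNA (SD, n = 3). The sums ran from 275.8 to 277.5 CPM in the control libraries and from 261.7 to 275.3 CPM with HNRNPD siRNA. The groups were only just apart, and this depends on the scaling. The TMM factors ran from 0.976 for control replicate 3 to 1.037 for HNRNPD siRNA replicate 2. Within that sum SNHG6 accounted for 35.1% to 37.8% in the control libraries and 29.9% to 31.8% with HNRNPD siRNA. GAS5 accounted for 16.96% to 17.99% and 20.5% to 23.0%. The ratio of GAS5 to SNHG6 counts, which does not depend on how libraries are scaled, was 0.449, 0.492 and 0.4999 in the 3 controls and 0.656, 0.770 and 0.688 with HNRNPD siRNA. That of SNHG8 to SNHG5 was 0.142, 0.152 and 0.143 against 0.258, 0.300 and 0.290. Both ratios were higher in every siRNA library than in any control library, and they are given as a description without a test, since each pair was chosen from genes that differed. A bulk library does not show whether fewer cells hold a transcript or each cell holds less of it, and these cannot be told apart here.

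Per kilobase of annotated exon, the 9 genes covered a wide range of levels. In the control libraries SNHG6 was at 80.9 CPM per kb, GAS5 at 13.3, SNHG5 at 12.8 and SNHG1 at 8.62. SNHG8 followed at 5.64, SNHG3 at 5.42, SNHG15 at 4.84, SNHG7 at 1.88 and SNHG12 at 1.74 CPM per kb. The ranges over control libraries overlapped between GAS5 and SNHG5, between SNHG8 and SNHG3, between SNHG3 and SNHG15 and between SNHG7 and SNHG12, so their order is not settled. With HNRNPD siRNA the levels were 66.1 CPM per kb for SNHG6, 16.0 for GAS5 and 9.78 for SNHG5. SNHG8 (8.34) was then beside SNHG1 (8.29), and SNHG12 (2.31) was above SNHG7 (1.48). Exon lengths here are the union over all annotated transcripts, so a gene with many long, rarely used exons appears lower. The rows also hold bases that are introns in other transcripts. The SNHG1 row has 3756 bases against 1038 in SNHG1-205, and the SNHG15 row 3647 against 953 in SNHG15-210. In total RNA the counts therefore cannot tell spliced from unspliced host RNA.

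AU-rich sequence was looked at because AUF1 is known for binding it. The motif searched was ATTTA, on the transcript strand only, overlapping matches included. Windows of SNHG3 (chr1:28509594-28509622, plus strand), SNHG5 (chr6:85677981-85678009, minus strand) and SNHG8 (chr4:118279762-118279790, plus strand) are shown as examples from genes that rose and fell, with the motif in capitals.
SNHG3-201: ctatgttaatgtATTTAtgaattaaaata
SNHG5-202: atctgggagaatATTTAatggaaaatcgc
SNHG8-205: ttgtaaagtaatATTTAaggtggtccgtg

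ATTTA was present in 46 of 72 spliced transcripts of the 9 genes (63.9%) and in 51.8% of spliced long non-coding transcripts, whose lengths have a similar median (677 and 641 bases). In the transcripts used above it occurred 4 times in SNHG3, 3 times in SNHG7, 2 times in SNHG15 and once each in SNHG1, SNHG5, SNHG6 and SNHG8. It occurred in 0 of 10 spliced GAS5 transcripts and in 1 of 7 of SNHG12, both of which rose. A match is a description of the letters and not of binding, which was not measured in these libraries.

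The snoRNAs themselves were barely counted. In all, 12 snoRNA rows lie wholly inside 6 of the host genes, their means ranged from 0.168 to 4.07 CPM, and 10 could be tested. edgeR called 0 of 10, with 0 at an unadjusted p under 0.05. DESeq2 also called 0, and limma-voom called 1, SNORA17B, named for that call, with a mean of 0.275 CPM in controls and 0.112 CPM with HNRNPD siRNA. Those with a mean of at least 1 CPM were SNORD22, SNORD26 and SNORD25 in SNHG1, SNORA17A in SNHG7 and SNORA61 in SNHG12. A box C/D and a box H/ACA example from a host that was not called and one that rose are shown, with the C and D boxes of SNORD25 (chr11:62855564-62855632, minus strand) and the H box matches and ACA of SNORA61 (chr1:28579764-28579893, minus strand) in capitals.
SNORD25: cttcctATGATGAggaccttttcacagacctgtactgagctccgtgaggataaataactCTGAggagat
SNORA61: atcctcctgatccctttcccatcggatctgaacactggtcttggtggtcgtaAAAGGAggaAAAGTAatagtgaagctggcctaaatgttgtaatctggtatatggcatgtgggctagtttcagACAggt

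SNORA61 stood at 1.74, 1.54 and 2.48 CPM in the control libraries and at 2.67, 2.03 and 2.20 CPM with HNRNPD siRNA, with overlapping groups (log2 fold change 0.26, SE 0.21, edgeR adjusted p = 0.311). SNORD25 had means of 1.61 and 1.62 CPM (log2 fold change 0.02, SE 0.23, edgeR adjusted p = 0.958). SNORD26 went from 2.72 to 2.18 CPM (-0.32, edgeR adjusted p = 0.131) and SNORD22 from 4.41 to 3.73 CPM (-0.24, adjusted p = 0.215). SNORA17A had 2.05 and 1.85 CPM (-0.15, adjusted p = 0.537). Standard RNA libraries recover RNAs of this size poorly, and several of these rows lie within host exons of some transcripts, so the rows do not measure mature snoRNA.

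RCC1, whose interval (chr1:28505943-28539300, plus strand) contains that of SNHG3, and TRNAU1AP, which lies beside SNHG12, fell where these hosts rose. RCC1, the guanine nucleotide exchange factor of RAN, shares 242 exonic bases with SNHG3 on the same strand and fell from 45.4 to 33.1 CPM (log2 fold change -0.46, edgeR adjusted p = 6.05e-06). The ratio of SNHG3 to RCC1 counts in the controls was 0.458, 0.503 and 0.503, and it was 0.826, 0.745 and 0.777 with HNRNPD siRNA, without overlap. TRNAU1AP, which acts in selenocysteine incorporation and lies on the opposite strand to SNHG12, fell from 5.62 to 3.57 CPM (-0.65, edgeR adjusted p = 0.00035). The ratio of SNHG12 to TRNAU1AP counts was 0.941, 0.991 and 1.21 in control libraries and 2.22, 1.86 and 2.51 with HNRNPD siRNA.

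SLC3A2, the heavy chain of amino acid transporters and the neighbour of SNHG1, fell from 376 to 282 CPM (log2 fold change -0.41, edgeR adjusted p = 4.14e-06), while SNHG1 beside it was not called. The ratio of SNHG1 to SLC3A2 counts was 0.0842 to 0.0876 in control libraries and 0.105 to 0.115 with HNRNPD siRNA. For these 3 ratios, and for that of SNHG8 to PRSS12, the exact two-sided permutation test gave p = 0.1. That is the smallest p that 3 against 3 libraries allow. For SNHG3 to RCC1 and SNHG12 to TRNAU1AP it was fixed in advance, as both genes of each pair separated the groups in opposite directions. For SNHG1 to SLC3A2 it was fixed as well, by the fall of SLC3A2 beside a nearly level SNHG1. No conclusion is drawn from these p-values. The ratios of SNHG7 to FAM69B (p = 0.2), GAS5 to ZBTB37 (p = 0.2) and SNHG6 to MCMDC2 (p = 0.7) overlapped between groups in the same exact test. ZBTB37, which lies beside GAS5, had 10.8 and 10.7 CPM and was not called (edgeR adjusted p = 0.867).

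**Figure D2:**
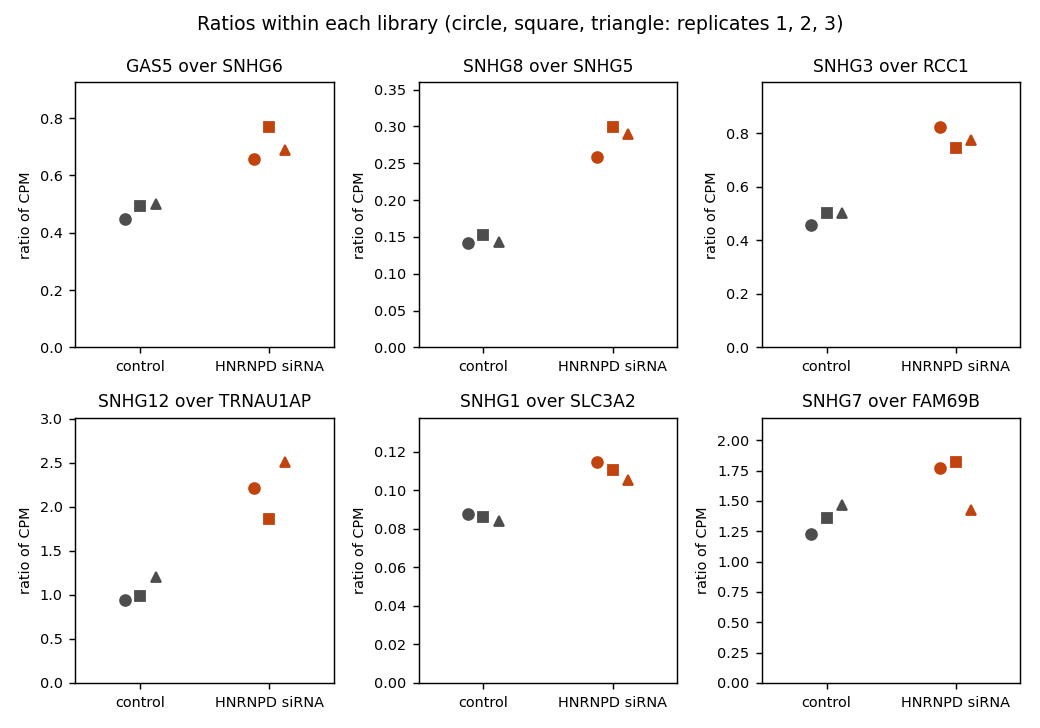
Ratios of counts within each library (vertical axes, starting at 0) for pairs among the 9 genes and for hosts over their neighbours, with 3 libraries per group. The ratios of GAS5 to SNHG6 and of SNHG3 to RCC1 were higher in every HNRNPD siRNA library than in any control library.

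Other non-coding hosts also moved in both directions. Of 18 tested, 7 rose and 2 fell, and the median log2 fold change was 0.21. That median was 0.11 without control replicate 3 and 0.13 without HNRNPD siRNA replicate 2. EPB41L4A-AS1 rose from 27.4 to 44.9 CPM (log2 fold change 0.71), SNHG11 from 1.40 to 2.99 CPM (1.10) and TAF1D, whose gene also encodes a subunit of an RNA polymerase I factor, from 101 to 130 CPM (0.37). The 2 that fell were SNHG16, from 29.7 to 19.5 CPM (-0.61), and LRRC75A-AS1, from 51.5 to 40.6 CPM (-0.34). The share called, 9 of 18, is near the 56.1% of all tested rows. The other 9 did not pass the test. Each gene said to have risen or fallen, in this list and those that follow, passed the same edgeR test. The largest adjusted p among those named is 0.0184, for the cell type marker COL1A1, followed by 0.0132, for NAF1.

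**Figure D3:**
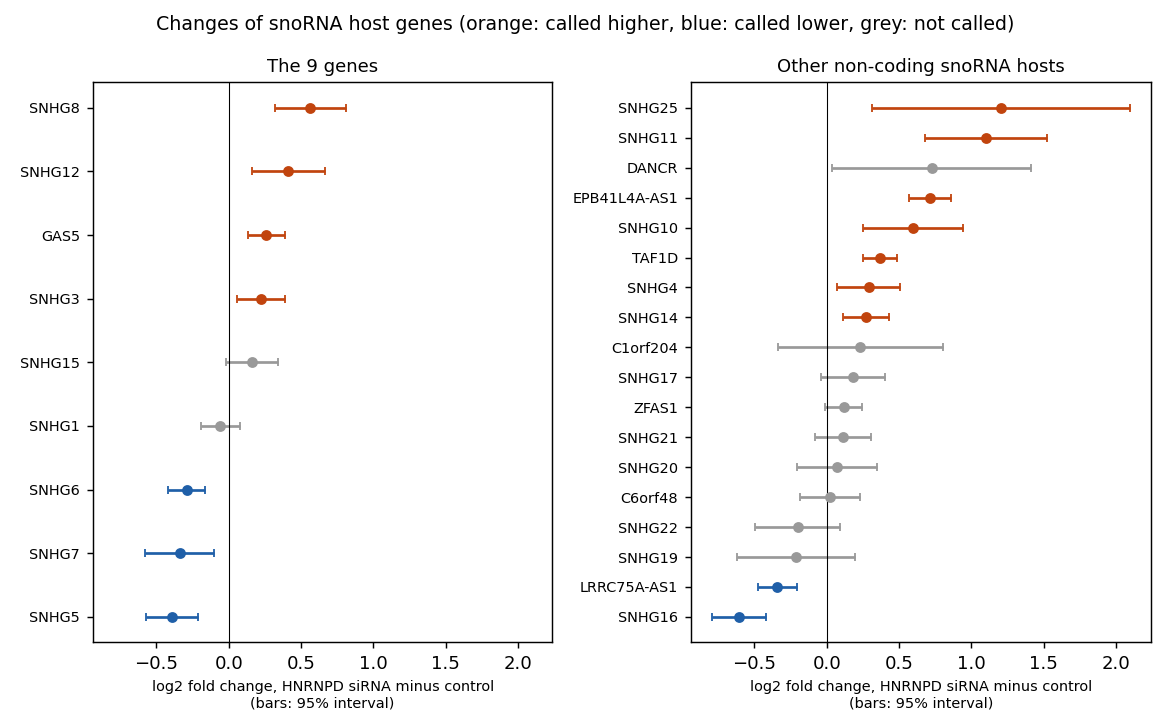
Log2 fold change (horizontal axis, HNRNPD siRNA minus control, bars for the 95% interval) of the 9 genes, on the left, and of the 18 other tested non-coding hosts, on the right, coloured by call. The 9 genes lie between -0.39 and 0.56, and both panels hold genes on either side of 0.

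Protein-coding snoRNA hosts were mostly lower. Of 39 tested, 28 fell and 8 rose, around a median log2 fold change of -0.39. The 92.3% called stand beside 56.1% of all tested rows and 67.3% of those with a mean of at least 5 CPM. Lists of abundant genes are called more often for their counts alone, and the share was not tested. The lower ones included all 22 ribosomal protein genes of the list, such as RPL17 (157 to 105 CPM, log2 fold change -0.58), and EEF1B2, a translation elongation factor (398 to 245 CPM, -0.70). Of the other 17, 8 were higher and 6 lower. PPAN, a ribosome biogenesis gene, rose from 57.4 to 95.2 CPM (0.73) and EIF4A1, an RNA helicase of translation initiation, from 130 to 211 CPM (0.70). The difference between protein-coding and non-coding hosts was not tested.

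Genes listed for a 5' TOP tract, mainly but not only genes of translation and without the ribosomal proteins, were also mostly lower. Of 15 tested, 12 fell and 2 rose, with a median log2 fold change of -0.38. The 93.3% called stand beside 67.3% of the rows with a mean of at least 5 CPM. TPT1 (428 to 269 CPM, -0.67), EIF3H (95.5 to 61.8 CPM, -0.63) and EEF1B2 fell, while the initiation factor subunit EIF3F (19.8 to 35.3 CPM, 0.84) and EEF1D (268 to 314 CPM, 0.23) rose. EEF1B2, EEF2 and RACK1 stand in this list and in that of protein-coding hosts. Among the 9 transcripts chosen for the hosts, 6 begin with C and at least 3 more pyrimidines, and of their genes 3 rose and 3 fell.

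Of 19 NMD factors, 8 rose and 2 fell, and the median log2 fold change was 0.10. The 10 called are 52.6% of the list. The share was 56.1% of all tested rows and 67.3% of those with a mean of at least 5 CPM, where all these factors fall. Without control replicate 2, 5 were called higher, and the median was 0.05 without control replicate 3 and 0.06 without HNRNPD siRNA replicate 3. UPF2, a core factor that bridges UPF1 and the exon junction complex, rose from 172 to 264 CPM (0.62). SMG5 (59.4 to 88.0 CPM, 0.57), RNPS1 (58.2 to 88.2 CPM, 0.60) and the helicase DHX34 (21.5 to 31.0 CPM, 0.53) rose as well. EIF4A3, a core protein of the exon junction complex, fell from 41.9 to 33.3 CPM (-0.33) and UPF3B from 267 to 221 CPM (-0.28). UPF1, the central helicase, named here after its values were seen, had 37.4 and 37.5 CPM and was not called (edgeR adjusted p = 0.968). These counts are of mRNA, and NMD activity was not measured.

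Known mRNA targets of NMD did not move one way either: 5 of 13 rose and 4 fell, and the median log2 fold change was -0.04. The 69.2% called stand beside 67.3% of rows averaging 5 CPM or more, and the median was 0.04 without HNRNPD siRNA replicate 1. ATF3 (7.69 to 27.1 CPM, 1.82), DDIT3 (9.73 to 23.8 CPM, 1.29), TRAF2 (18.0 to 32.5 CPM, 0.86), SESN2 (8.80 to 11.8 CPM, 0.42) and TBL2 (16.5 to 19.99 CPM, 0.28) rose. CARS (187 to 101 CPM, -0.89), TNFRSF10D (28.5 to 13.5 CPM, -1.08), UPP1 (25.4 to 14.0 CPM, -0.86) and ATF4 (228 to 175 CPM, -0.39) fell. Several of these are also known as stress-response genes.

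Of 18 genes for snoRNP proteins and their assembly factors, 5 rose and 8 fell, and the median log2 fold change was -0.10. The 72.2% called stand beside 67.3% of the rows with a mean of at least 5 CPM. NOLC1, a nucleolar chaperone that binds snoRNPs, rose from 140 to 383 CPM (1.45). DKC1, the pseudouridine synthase of box H/ACA particles (343 to 439 CPM, 0.36), ZNHIT3 (12.9 to 16.0 CPM, 0.31), RUVBL2 (118 to 137 CPM, 0.21) and NAF1 (4.19 to 5.67 CPM, 0.44) were the other 4 that rose. SNU13, a protein of box C/D particles, fell from 11.6 to 6.73 CPM (-0.78), and the assembly helicase RUVBL1 fell from 134 to 98.0 CPM (-0.45).

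**Figure D4:**
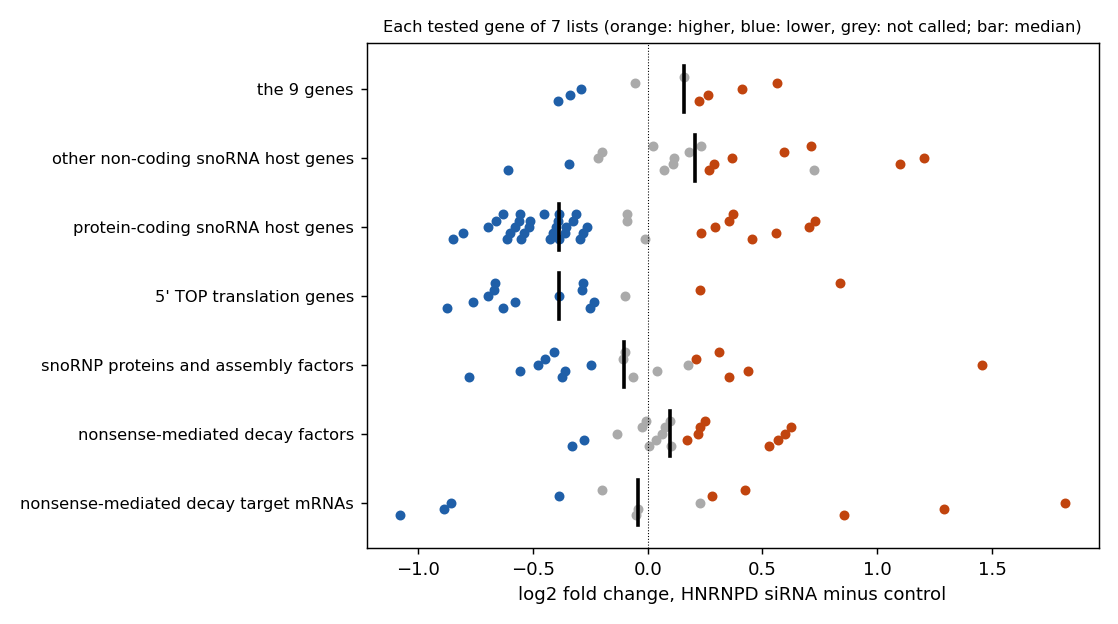
Log2 fold change (horizontal axis, HNRNPD siRNA minus control) of every tested gene in 7 lists, one row of points per list, with a bar at the median. The median is -0.39 for protein-coding hosts, 0.21 for other non-coding hosts and 0.16 for the 9 genes. The order of the last 2 turns without control replicate 3 (0.11 and 0.18) and without HNRNPD siRNA replicate 2 (0.13 and 0.22). It also turns with a filter of at least 1 CPM in 3 libraries (0.14 and 0.18).

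Among genes outside the set with 5 CPM or more on average, the 3 whose log2 CPM followed the mean centred profile of the 9 genes most closely over the 6 libraries were CNPPD1 (Pearson r = 0.98), RNF170 (0.98) and SPAG7 (0.97). These are descriptions over 6 libraries of 2 groups, and none of the 3 was called. In that mean, genes that rose and fell offset each other, and HNRNPD siRNA replicate 1 was the highest.

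The labels were checked on the targeted gene: HNRNPD had 942 to 965 CPM in the control libraries and 163 to 177 CPM with HNRNPD siRNA (log2 fold change -2.49, SE 0.06, edgeR adjusted p = 1.38e-15). Counts summed to between 37151094 and 43005090 per library, and mitochondrial genes took 15.1% to 18.5%. All 8 epithelial markers chosen for A549 were above 1 CPM, and their summed level was 6788 to 7217 CPM in the control and 4135 to 4296 CPM in the siRNA libraries. Of these markers 6 fell, the abundant keratins KRT8, KRT7 and KRT18 among them, EPCAM rose (16.6 to 20.9 CPM, edgeR adjusted p = 0.00158) and CDH1 was not called (95.8 and 87.4 CPM). Among 9 markers of other cell types, 2 were above 1 CPM (COL1A1 and CD14), none was at 0 in all libraries, and their sums were 7.77 to 7.87 and 7.52 to 8.54 CPM. CD14 fell from 2.07 to 0.514 CPM and COL1A1 rose from 5.14 to 6.67 CPM, while COL3A1 (0.204 and 0.423 CPM) and PECAM1 (0.235 and 0.278 CPM) were not called. PTPRC, CD3E, VWF and DCN, which define leukocytes, T cells, endothelium and fibroblasts, had group means of at most 0.0788 CPM. The last of the 9 markers, CD79A, had 0.0549 CPM in the control and 0.124 CPM in the siRNA group, and it was not tested. The part of these marker differences in the values of the 9 genes was not tested.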

How the data were processed

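RNA was sequenced from 3 control and 3 HNRNPD siRNA libraries of A549 cells. The deposited table holds whole-number read counts per gene, which the authors left unnormalized as far as their differing library totals show. The submitters' processing notes list Bowtie 0.12.2 and 2 builds, GRCh38 and mm8, without saying what each served for. The counter and its strandedness were not given in the sources used here. Total RNA was used with a TruSeq kit, per the labels' protocols.

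Counts were tested with edgeR 4.0.16 (quasi-likelihood, robust, TMM, filterByExpr, group as the only term) in R 4.3.3, with Benjamini-Hochberg adjustment over 20465 rows. Standard errors were derived from each fold change and its F statistic. Library totals of 37151094 to 43005090 make 3 counts, the smallest level read as present, worth about 0.0698 to 0.0808 CPM, which covers counting error only. Alternatives used DESeq2 1.42.0, limma-voom (limma 3.58.1), other scalings, other filters, a replicate block, halved counts and libraries left out. The procedure was tested on simulated counts, where it recovered 48% of 1.25-fold changes, 92% of 1.5-fold and 100% of 2-fold changes. Changes near 1.25-fold can therefore be missed. Replicates of each group differed by more than sampling noise (chi-square per degree of freedom from 6.63 to 27.7).

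All 9 genes are named. From each other list the 4 genes with the smallest p are named, with every gene called against the list's main direction where these number 5 or fewer. Neighbours within 5000 bases and snoRNA rows inside the hosts are named at a mean of at least 1 CPM. GAS5-AS1, SNORA17B and UPF1 fall outside these rules and are named for the reasons given beside them. snoRNA rows that pool loci on several chromosomes were left out, and the SNORD22 row pools loci within SNHG1. The genes and lists were chosen with earlier results of these data known. Transcript sequences are GENCODE 29 on GRCh38.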

Additional observations from a re-analysis of the deposited data

How the results depend on the processing

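The 15 alternatives left the direction of all 9 genes as it was. SNHG5, SNHG6, SNHG8, SNHG12 and GAS5 were called in 15 of 15, SNHG3 in 12 and SNHG7 in 13, and SNHG1 and SNHG15 in 0. The median log2 fold change of the 9 genes ranged from 0.0795 to 0.223 when 1 library was left out, the lowest without HNRNPD siRNA replicate 1. NMD factors called higher numbered 5 to 7 with 1 library left out, the lowest without control replicate 2, against 8 in full. The median of the NMD targets turned to 0.04 without HNRNPD siRNA replicate 1. Replicate numbers did not pair the libraries: correlations of same-numbered deviations were 0.04, 0.03 and 0.02, and control replicate 2 was closest to HNRNPD siRNA replicate 3 (0.03). With the replicate block 5792 rows were called higher and 5737 lower, against 5803 and 5687 without, and no call among the 9 genes changed. Counts may include both mates of a read pair, and with counts divided by 2, 5628 rows were higher and 5472 lower. SNHG7, SNHG8 and SNHG12, at 5 to 9 CPM, have the widest intervals. The cause of these shifts was not tested.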
